A study of Mus musculus with 2 samples.

Results

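The genes described here encode CD14, its partner MD-2 and the Toll-like receptors of the cell surface and endosome, with the adaptors that carry their signal: Cd14, Ly96, Tlr1 to Tlr6, Myd88 and Ticam1. All 10 genes were found by symbol among the 20211 gene symbols of the deposited tables. The list was chosen by a measured value as well as by function, since Cd14 had been seen to be higher in the Kai1 knockout library while other macrophage markers were lower, so the levels of these genes are a description and were not tested. Perivascular cells (PVCs, the pericyte-like mural cells that surround vessels) had been grown from the aorta of C57BL/6 mice in DMEM with fetal bovine serum and given no further treatment named in the labels. There was 1 WT library and 1 library labelled Kai1 KO, for the gene of KAI1 (CD82), a membrane protein of the tetraspanin family. How the Kai1 deletion was made and whether animals were pooled are not given in the sources used here. The methods describe purchased C57BL/6 mice as adults of either sex without tying them to these libraries, and the labels and the study's methods give different serum contents for the medium.

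Toll-like receptors recognise microbial molecules. CD14 takes up bacterial lipopolysaccharide and hands it to TLR4, which binds it only together with MD-2, the product of Ly96. TLR2 pairs with TLR1 or TLR6 to bind lipopeptides, TLR5 binds flagellin, and TLR3 binds double-stranded RNA in endosomes. All of them but TLR3 signal through the adaptor MyD88, while TLR3 and, from endosomes, TLR4 use TRIF, the product of Ticam1. The signals end in NF-κB and interferon regulatory factors. Vascular mural cells and fibroblasts are known to respond to lipopolysaccharide and lipopeptides with cytokines and chemokines, and CD14 is best known from monocytes and macrophages.

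RPKM, the reads of a gene scaled by transcript length and by all mapped reads, is a level per length, so that genes can be compared with each other within a library. No replicate stood behind any value. The steps between low RPKM values corresponded to about 29600000 reads for WT and 26700000 for Kai1 KO PVCs, and approximate reads per gene and 95% counting intervals were taken from these steps. The intervals cover counting error only, and differences between animals, cultures and library preparations cannot be told apart from genotype. The targeted gene Cd82 had an RPKM of 12.8 in WT and 2.62 in Kai1 KO PVCs, so it was lower but not at 0, and the library is named here by its label. Of the 6 defining mural markers, none was at 0 in either library, and Pdgfrb, Cspg4, Acta2 and Tagln were at 44.7, 15.4, 3823 and 633 in WT and at 31.6, 8.27, 2580 and 307 in Kai1 KO PVCs. Rgs5, a pericyte marker, was low in both libraries (0.0630 and 0.233), and the smooth muscle myosin gene Myh11 was at 2.96 and 0.346.

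The co-receptor genes were higher in the Kai1 KO library, the receptor genes were lower, and the adaptor genes were nearly equal. Cd14 was 5.21-fold higher and Ly96 2.09-fold higher in Kai1 KO PVCs. Each of the 6 receptor genes Tlr1 to Tlr6 was lower, with Tlr2 at 28.2% of its WT level. Myd88 and Ticam1 stood at 94.3% and 97.8% of WT.

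**Figure D1:**
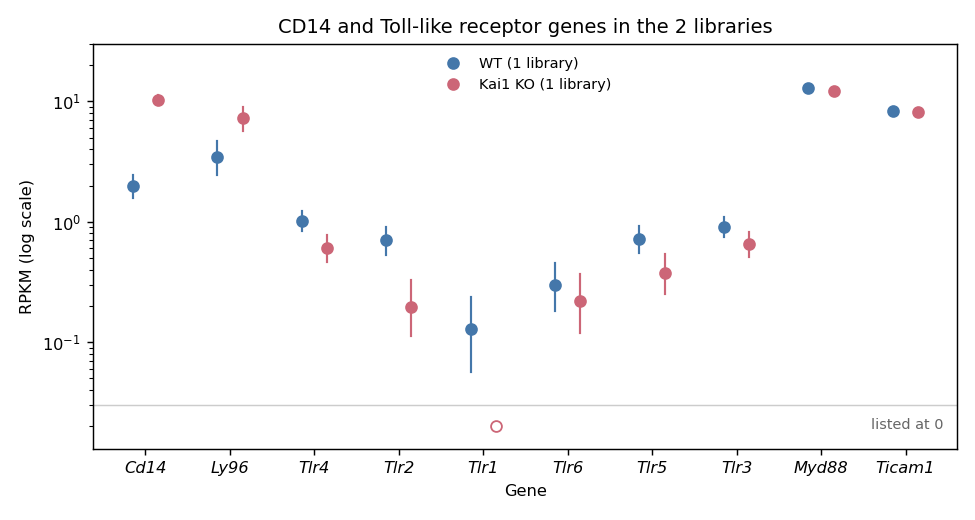
RPKM on a log scale of the 10 genes in WT PVCs (blue) and Kai1 KO PVCs (red), with vertical bars for the 95% counting interval from the estimated reads and an open circle for a gene listed at 0. Cd14 and Ly96 were higher in Kai1 KO PVCs and their bars do not overlap between the libraries, while all 6 receptor genes were lower and the points of Myd88 and Ticam1 nearly coincide.

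Cd14, the lipopolysaccharide-binding co-receptor, lies on the minus strand of chromosome 18 (mm9, 36884728 to 36886390) and has 1 annotated transcript of 1572 bases in 2 exons. Its RPKM was 1.98 in WT PVCs (interval 1.56 to 2.45) and 10.3 in Kai1 KO PVCs (9.30 to 11.4), from about 80 and 378 reads. The counting interval of the ratio ran from 4.11 to 6.75. On the scale of log2(RPKM + 0.1), the difference of Kai1 KO minus WT was 2.32, and 60 among 10068 genes with a mean RPKM of 1 or more had a larger one. Since Cd14 was chosen by this difference, nothing is read from its rank. The nearest measured gene on the right, Tmco6, was at 1.97 and 1.79, and the one on the left, E230025N22Rik, at 0.186 and 0.351, so neither neighbour showed a difference as large as that of Cd14.

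Ly96 encodes MD-2, the secreted protein that completes the TLR4 lipopolysaccharide receptor. It lies on chromosome 1 from 16678537 to 16699686 on the plus strand, with a transcript of 603 bases in 5 exons. Its RPKM was 3.46 in WT PVCs (2.47 to 4.66) and 7.24 in Kai1 KO PVCs (5.73 to 9.05), from about 41 and 78 reads. The ratio of 2.09 had a counting interval from 1.43 to 3.16 and a log2 difference of 1.04, just past 2-fold. It fell short of 2-fold with 1 RPKM added (0.89) and under each of the 3 other scalings, down to 0.55 with both libraries scaled to Gapdh. Tmem70, the nearest gene on its left, was at 15.8 and 22.1.

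The lipopolysaccharide receptor itself did not share this direction. Tlr4, on chromosome 4 (66488618 to 66591318, plus strand), reached an RPKM of 1.02 in WT PVCs (0.843 to 1.22) and 0.605 in Kai1 KO PVCs (0.468 to 0.779), from about 117 and 63 reads, or 59.4% of WT with a counting interval of the ratio from 0.432 to 0.818. The Cd14 level was thus 1.95 times the Tlr4 level in WT PVCs and 17.0 times in Kai1 KO PVCs. For Ly96 the same ratios were 3.40 and 11.96. Within the pair of co-receptors the order turned, with Cd14 at 0.573 times the Ly96 level in WT and 1.42 times in Kai1 KO PVCs.

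The lipopeptide receptors were lower to different degrees, with Tlr6 at 73.7% of its WT level, the smallest difference among the 6 receptors. Tlr2, on chromosome 3 from 83640195 to 83645689, went from an RPKM of 0.6995 (0.529 to 0.901) in WT to 0.197 (0.112 to 0.329) in Kai1 KO PVCs, from about 58 to 15 reads, 3.54-fold lower with an interval from 1.95 to 6.63. Its partner Tlr1, on chromosome 5 from 65316050 to 65324000, was at 0.128 in WT PVCs (about 9 reads) and listed at 0 in Kai1 KO PVCs, where 3 reads would have given 0.0458. Its log2 difference of -1.19 depends on the added 0.1 RPKM, and it was -0.17 with 1 RPKM added and -3.79 with 0.01. The other partner, Tlr6, lies 20345 bases from Tlr1 on the same strand, from 65344345 to 65351287. It was at 0.296 (0.183 to 0.451) and 0.218 (0.119 to 0.366), about 21 and 14 reads, and the interval of its ratio, 0.348 to 1.52, included 1. The transcripts of Tlr1 and Tlr6 share 454 windows of 50 bases, 17.4% of those of Tlr1 and 17.8% of those of Tlr6, so reads from these stretches could have been assigned to either gene and both values are uncertain. No such window was shared among the other receptor members.

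Tlr5, the flagellin receptor, on chromosome 1 from 184884919 to 184906175, was at 0.721 (0.555 to 0.921) in WT and 0.374 (0.253 to 0.535) in Kai1 KO PVCs, from about 64 and 30 reads, with an interval of the ratio from 0.325 to 0.814. Tlr3, the endosomal receptor of double-stranded RNA, on chromosome 8 from 46481019 to 46495962, was at 0.908 (0.747 to 1.09) and 0.653 (0.511 to 0.823), from about 111 and 72 reads, with an interval from 0.527 to 0.976 that ended just below 1. Added together, the 6 receptor genes had an RPKM of 3.77 in WT and 2.05 in Kai1 KO PVCs, or 54.3%. In WT PVCs the order from high to low was Tlr4, Tlr3, Tlr5, Tlr2, Tlr6 and Tlr1, and neighbours in this order had overlapping counting intervals except Tlr2 and Tlr6. In Kai1 KO PVCs the order was Tlr3, Tlr4, Tlr5, Tlr6, Tlr2 and Tlr1, with overlapping intervals between neighbours except Tlr2 and Tlr1.

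None of the 6 receptor genes reached a mean RPKM of 1, so they passed no filter on level and were read against genes of their own range. Among 3251 genes with a mean RPKM from 0.05 to 1, a range set to hold all 6, 60.9% were lower by any amount in Kai1 KO PVCs and 33.6% were more than 2-fold lower. Of the 6 receptors, 6 were lower and 2, Tlr1 and Tlr2, were more than 2-fold lower, and the latter share is close to that of the range as deposited. With 1 RPKM added no receptor passed 2-fold. Tlr5 also passed with equal upper quartiles, and Tlr4 and Tlr5 scaled to Gapdh. The share of the range was not recomputed under these settings. The 6 further Toll-like receptors, Tlr7, Tlr8, Tlr9, Tlr11, Tlr12 and Tlr13, were listed at 0 in Kai1 KO PVCs, and in WT PVCs only Tlr13 was above 0, at 0.00885 or about 1 read. A count of 0 allows an RPKM of up to 0.0342 for these genes in WT and 0.0379 in Kai1 KO PVCs, where 3 reads are taken as the limit.

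Of the 10 genes, 4 (Cd14, Ly96, Myd88 and Ticam1) had a mean RPKM of 1 or more, and each of these was at 1 or above in both libraries. Cd14 and Ly96 were more than 2-fold higher and none was more than 2-fold lower. Over all 10068 genes at this level, 7.98% passed 2-fold upward and 7.81% downward. Since Cd14 was chosen by this contrast, nothing is read from the count of members.

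**Figure D2:**
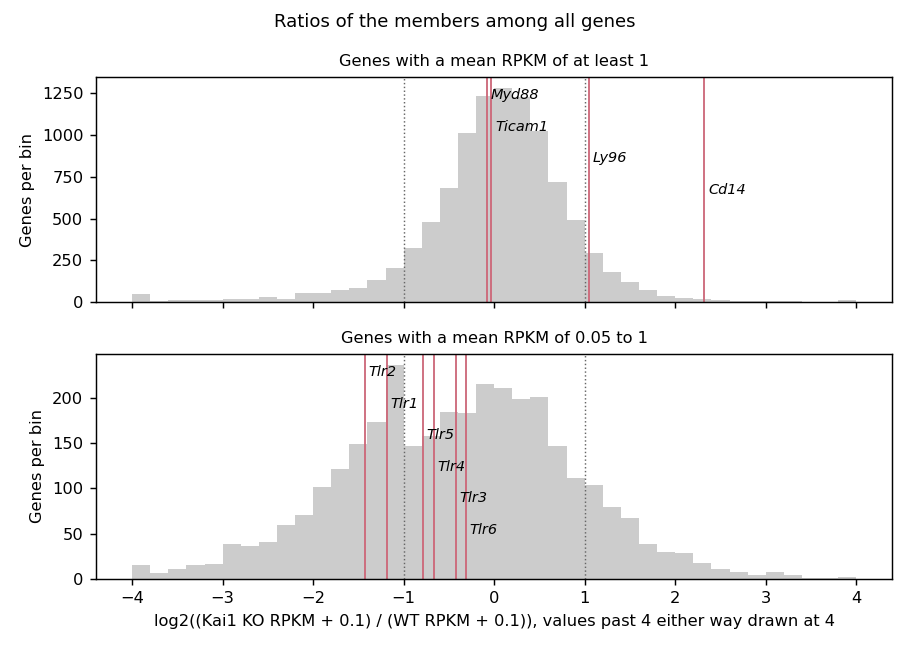
Histograms of the log2 ratio of Kai1 KO to WT for genes with a mean RPKM of 1 or more (top) and of 0.05 to 1 (bottom), as genes per bin, with red lines for the members at that level and dotted lines at 2-fold either way. Cd14 lies in the upper tail at 2.32 and Ly96 at 1.04, and the 6 receptors lie between -1.43 and -0.32 in a distribution that is itself broad.

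The adaptors were the most abundant members in WT PVCs and hardly differed. Myd88, on the minus strand of chromosome 9 (119245052 to 119250529), was at an RPKM of 12.9 (12.1 to 13.8) in WT and 12.2 (11.3 to 13.1) in Kai1 KO PVCs, from about 862 and 734 reads, with an interval of the ratio from 0.854 to 1.04. Ticam1, on chromosome 17 from 56408742 to 56416209, was at 8.32 (7.71 to 8.97) and 8.14 (7.51 to 8.82), from about 688 and 607 reads, with an interval from 0.876 to 1.09. Myd88 was 1.55 times as abundant as Ticam1 in WT and 1.49 times in Kai1 KO PVCs. The counting strand is not stated, and Myd88 overlaps Acaa1a on the opposite strand, which was at 47.8 in both libraries, so reads of the shared stretch cannot be told apart. Scaling to Gapdh lowered the 2 adaptors to log2 differences of -0.58 and -0.52, against a median of -0.41 for all 10068 genes on that scale and 0.08 as deposited.

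The upstream sequences of 3 members are shown because their levels compared differently between the libraries, Tlr2 being the measured receptor with the lowest Kai1 KO share among those above 0 and Myd88 and Ticam1 being nearly equal between the libraries. The 250 bases before the transcription start come from RefSeq on GRCm38.p6, which held 7 of the 10 members. Cd14, Ly96 and Tlr4 were not among them. All 3 genes lie on the minus strand, at chr3:83841609-83841858 for Tlr2, chr9:119340019-119340268 for Myd88 and chr17:56276768-56277017 for Ticam1, and the sequences run 5′ to 3′ toward the start. Capitals mark matches, on either strand, to GGGNNTTCC (an NF-κB site), GAAANNGAA (an interferon regulatory factor site), GGGCGG (a GC box) and GAGGAA (the core of a PU.1 site).
Tlr2: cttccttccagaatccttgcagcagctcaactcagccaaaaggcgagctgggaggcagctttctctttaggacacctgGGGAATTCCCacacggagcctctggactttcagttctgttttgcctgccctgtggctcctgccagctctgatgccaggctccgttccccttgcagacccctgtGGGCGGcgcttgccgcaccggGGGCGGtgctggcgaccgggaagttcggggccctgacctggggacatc
Myd88: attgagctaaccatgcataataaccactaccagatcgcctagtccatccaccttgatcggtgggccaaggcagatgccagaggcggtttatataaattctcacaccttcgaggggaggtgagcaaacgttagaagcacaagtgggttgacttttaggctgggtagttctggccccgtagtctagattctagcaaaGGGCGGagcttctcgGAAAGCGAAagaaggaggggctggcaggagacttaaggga
Ticam1: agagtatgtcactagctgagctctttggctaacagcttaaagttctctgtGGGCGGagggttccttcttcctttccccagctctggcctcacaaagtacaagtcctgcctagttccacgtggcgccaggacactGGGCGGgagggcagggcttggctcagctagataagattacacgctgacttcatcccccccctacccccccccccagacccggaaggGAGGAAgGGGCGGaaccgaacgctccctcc

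The Tlr2 sequence held the NF-κB letters 172 and 171 bases before the start as overlapping matches, and GC boxes 69 and 48 bases before it. The Myd88 sequence held the interferon regulatory factor letters 40 bases and a GC box 55 bases before the start. The Ticam1 sequence held GC boxes 200, 116 and 23 bases and the PU.1 letters 30 bases before the start. Among the 32851 promoters of the table, 4.98% held the NF-κB letters, 7.13% the interferon regulatory factor letters, 32.7% the GC box and 23.3% the PU.1 letters. Of the other matched members, Tlr5 held 2 GC boxes, the first promoter of Tlr6 held overlapping interferon regulatory factor letters 115 and 109 bases before the start, the first promoter of Tlr1 held the PU.1 letters, and none of the 4 was found in that of Tlr3. The share of G and C was 62.8% for Tlr2, 51.2% for Myd88 and 59.6% for Ticam1, against a median of 52.4%. A match is a run of letters and not a measured binding site.

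The rest of the pathway was followed in lists by role. Together they held 124 genes, of which 77 had a mean RPKM of 1 or more. In Kai1 KO PVCs 19 of these passed 2-fold downward and 6 upward, 24.7% and 7.79%, beside 7.81% and 7.98% of all genes at this level. Their median log2 difference was -0.13, against 0.08 for all genes. The same 7.81% and 7.98% of all genes stand beside the 2-fold counts of each single list below. Scaled to Gapdh, 28 were lower and 2 higher, and with equal upper quartiles 25 and 4, while over all genes the numbers went from 786 lower and 803 higher to 1856 and 278 with Gapdh and to 1251 and 447 with equal upper quartiles.

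**Figure D3:**
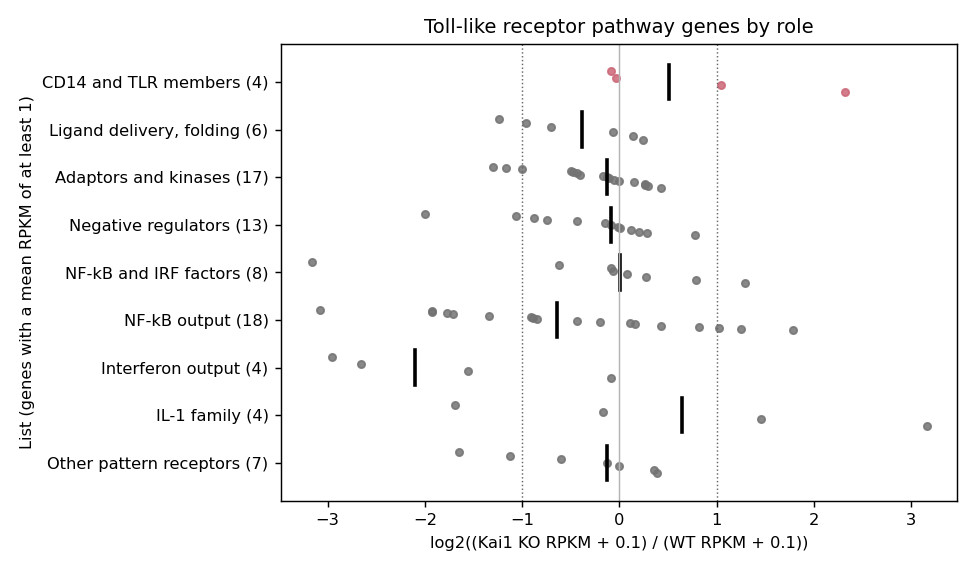
Log2 ratio of Kai1 KO to WT for genes with a mean RPKM of 1 or more, one point per gene, in rows by role with the number of genes in brackets, a black bar at each median and dotted lines at 2-fold either way. The interferon output has its median at -2.11 and the NF-κB output spreads from -3.08 to 1.79, while most adaptors and kinases lie within 2-fold.

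In the list of ligand delivery and receptor folding, 1 of 6 genes was more than 2-fold lower and none higher (median -0.39). Lbp, the serum protein that passes lipopolysaccharide to CD14, was at 18.4 in WT and 9.42 in Kai1 KO PVCs, so it was lower where Cd14 was higher. The receptor chaperones were nearly equal, with Hsp90b1 (gp96) at 243 and 231, Cnpy3 at 39.4 and 43.3 and Cnpy4 at 34.7 and 41.2. Unc93b1, which carries endosomal receptors out of the endoplasmic reticulum, was at 4.35 and 2.63. Lrrc32 (GARP), a leucine-rich repeat protein that holds latent TGF-β, was at 105 and 44.3 and was the gene past 2-fold. It has neither of these roles, so as deposited no measured gene that delivers ligands or folds the receptors passed 2-fold. Lbp was next, at a log2 difference of -0.96. With the median of all genes set to 0 or with equal upper quartiles, 2 genes of the list passed, Lrrc32 and Lbp, and scaled to Gapdh 3 did. Lrrc32 is also among the 19 genes counted as lower over the lists together. Cd36 and Ly86 were listed at 0 in both libraries.

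Among the adaptors and kinases downstream, 3 of 17 were more than 2-fold lower and none higher (median -0.13). These were Ikbke (IKKε), from 5.78 to 2.28, Irak2, from 4.42 to 1.91, and Irak1, the most abundant of the receptor-associated kinases, from 133 to 66.4. Irak1 stood at the threshold with a log2 difference of -1.01. Its partner kinase Irak4 was at 7.70 and 7.16, the ubiquitin ligase Traf6 at 1.34 and 0.986, and the bridging adaptor Tirap at 2.49 and 2.27. Tbk1, which acts beside IKKε below TRIF, was at 5.97 and 8.08. Ticam2, the bridge between TLR4 and TRIF, was listed at 0 in both libraries.

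Of the genes that restrain the pathway, 2 of 13 were more than 2-fold lower and none higher (median -0.09). Zc3h12a, a ribonuclease that degrades cytokine mRNAs, was at 7.27 in WT and 1.75 in Kai1 KO PVCs, and Dusp1, a MAP kinase phosphatase, at 45.0 and 21.5. The NF-κB inhibitor Nfkbia was at 25.6 and 15.2, the inactive kinase Irak3 at 3.72 and 1.97, and Tnfaip3 (A20) at 2.64 and 1.93. Socs3, a brake on cytokine receptors, was at 5.61 and 9.71. The genes of this list thus differed in both directions.

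Among the transcription factors, 1 of 8 was more than 2-fold lower and 1 higher by as much (median 0.01). The NF-κB subunits were nearly equal, with Rela at 31.9 and 30.6, Nfkb1 at 5.48 and 5.79, Nfkb2 at 28.9 and 35.1 and Relb at 9.66 and 9.12. The interferon regulatory factors were not. Irf7, which amplifies interferon production, went from 10.0 in WT to 1.03 in Kai1 KO PVCs, a ratio with a counting interval from 0.0766 to 0.135. Irf1 went the other way, from 5.49 to 13.5 (interval of the ratio 2.15 to 2.82), and Irf3, the factor directly below TRIF, was at 16.7 and 28.8, short of 2-fold. Scaled to Gapdh, Irf1 too was short of 2-fold.

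The genes that NF-κB is known to induce split in both directions, with 6 of 18 more than 2-fold lower and 3 higher by as much (median -0.64). Icam1, an adhesion molecule for leukocytes, was lowest against WT among the 18 genes at this level, from 6.69 to 0.704 (interval of the ratio 0.0755 to 0.144). The cytokine gene Il6 went from 5.11 to 1.27 and the prostaglandin synthase Ptgs2 from 8.66 to 2.20. Tnfaip2 (29.6 to 8.58), the chemokine Ccl20 (3.89 to 1.12) and the macrophage growth factor Csf1 (428 to 169) were the others more than 2-fold lower. The genes more than 2-fold higher were Lcn2 (18.9 to 65.4), which sequesters bacterial siderophores, the neutrophil chemokine Cxcl1 (64.6 to 154) and the acute-phase gene Saa3 (49.8 to 102). Scaled to Gapdh or with equal upper quartiles, only 1 gene of this list stayed more than 2-fold higher. Cxcl5, a neutrophil chemokine below the level filter, was at 1.23 in WT PVCs (about 53 reads) and listed at 0 in Kai1 KO PVCs, and the upper bound of its ratio was 0.0799. Ccl2, the monocyte chemokine, was at 262 and 139. Il1a, Csf2 and Il12b were listed at 0 in both libraries.

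Most of the measured genes that interferon induces below TRIF were lower. Of 10 genes, 7 were lower by any amount, 1 was higher and 2 were at 0 in both libraries. Beside them, 60.9% of all genes with a mean RPKM from 0.05 to 1 were lower, and 4522 of the 10068 at 1 or more. Of 4 at a mean RPKM of 1 or more, 3 were more than 2-fold lower and none higher (median -2.11), beside 7.81% and 7.98% of all genes at this level. Ifit3 went from 10.3 to 1.23, Ifit1 from 4.79 to 0.676 and Isg15 from 4.58 to 1.49, while Ifit2 was at 1.504 and 1.41, with an interval of the ratio from 0.740 to 1.18. Mx1, an antiviral GTPase below the level filter, was the gene that was higher, at 0.00186 in WT and 0.270 in Kai1 KO PVCs, about 0 and 23 reads. Ifnb1 and Cxcl10 were listed at 0 in both libraries, so no interferon-β mRNA was detected at this depth.

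The interleukin-1 receptor family signals through MyD88 as well, and its list held genes of both receptors and their ligands. Of 4 genes at a mean RPKM of 1 or more, 2 were more than 2-fold higher and 1 lower (median 0.65). The 2 higher genes, Il33 and Il1rn, do not encode receptors. Il33, a cytokine kept in the nuclei of stromal cells, went from 1.40 to 13.4 (interval of the ratio 7.74 to 11.9), and its receptor gene Il1rl1, which is below the level filter, from 1.09 to 0.144. Il1rn, the receptor antagonist, went from 1.68 to 4.79 and the signalling receptor Il1r1 from 1.74 to 0.470. The shared subunit Il1rap was at 1.43 and 1.27. Below the level filter, the receptor gene Il1r2 was at 0.710 in WT (about 24 reads) and at 0 in Kai1 KO PVCs. The receptor genes Il18r1 (0 and 0.00945) and Il18rap (0.0296 and 0.0821) were higher, at very low levels. Among the sensors outside the family, 2 of 7 were more than 2-fold lower and none higher (median -0.12). These were Ddx58 (RIG-I), a cytosolic RNA sensor, from 2.46 to 0.718, and Ripk2, the kinase below NOD1, from 9.50 to 4.29. Nod1 itself was at 14.9 in both libraries, and Tmem173 (STING) at 17.7 and 16.2.

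Because CD14 and the Toll-like receptors are also macrophage proteins, a list of 26 macrophage marker symbols was set beside them, of which 25 were in the tables. The summed RPKM of these 25 was 41.4 in WT and 9.49 in Kai1 KO PVCs, and 15 were lower, 1 higher and 9 at 0 in both. Only 4 of them had a mean RPKM of 1 or more. Among all genes with a mean RPKM from 0.05 to 1, 60.9% were lower by any amount, and 4522 of the 10068 at 1 or more. Markers below 0.05 lie outside both ranges. The counting intervals of the ratio of Cd163, Ptprc, Mpeg1 and Mrc1 included 1. Of the 7 defining markers, Emr1 and Aif1 were at 0 in both libraries, and Ptprc (CD45) was near 0, at 0.0407 and 0.00697. Csf1r was at 11.7 and 2.66, Tyrobp at 10.4 and 2.37, Lyz2 at 3.44 and 1.09 and Cd68 at 1.17 and 0.464. The complement genes C1qa, C1qb and C1qc, which resident macrophages express, were at 0 in both. Cd14 thus differed in the direction opposite to this list, which is the contrast by which the genes were chosen, so nothing is read from it. The receptor genes differed in the same direction as the list. The part of macrophages in the receptor values was not tested, and fewer cells of a type and less RNA per cell cannot be told apart in bulk RNA.

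**Figure D4:**
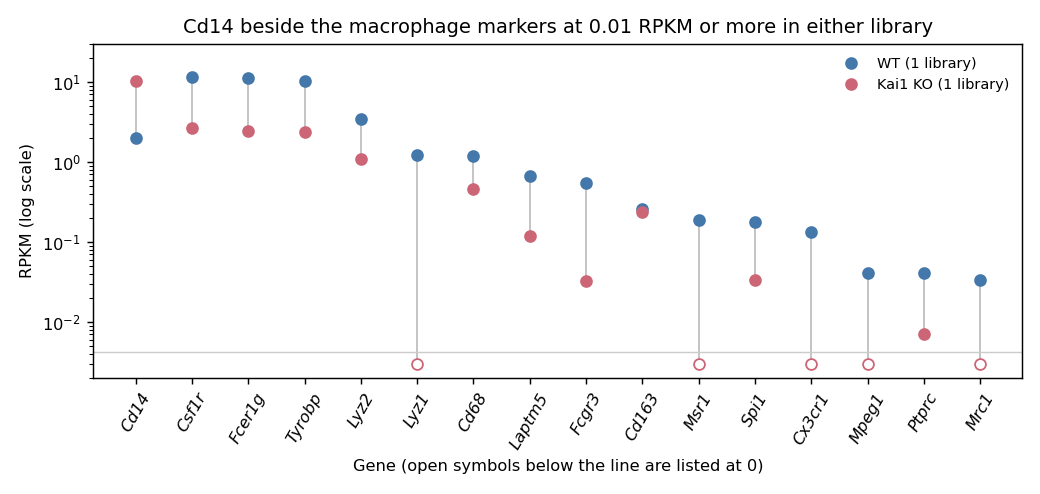
RPKM on a log scale of Cd14 and of the 15 macrophage markers at 0.01 RPKM or more in either library, WT in blue and Kai1 KO in red, with open circles for genes listed at 0. Cd14 is higher in Kai1 KO PVCs, and each of the 15 markers drawn is lower, though Cd163 is nearly equal (0.256 and 0.240). The genes were chosen by this contrast.

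Markers of other cells the culture could hold were read in the same way. Of 14 markers of other leukocytes in the tables, 3 reached a mean RPKM of 1, the mast cell gene Cpa3 at 14.8 and 3.47, Nkg7 at 3.26 and 0, and S100a8 at 1.61 and 2.18, and the summed RPKM was 20.8 and 6.42. The 12 endothelial markers summed to 43.3 and 21.4, nearly all of it Eng (42.0 and 21.4). Of the 12, 4 were at 0 in WT and 11 in Kai1 KO PVCs, beside 5690 and 6902 of all 20211 symbols. The 10 fibroblast markers summed to 2688 and 1603, mostly Ly6a (1354 and 569) and Col1a1 (924 and 534). Of the 9 at a mean RPKM of 1 or more, 6 were lower and 3 higher, the latter being Col3a1 (67.5 and 101), Thy1 (324 and 380) and Cd34 (1.44 and 7.76), whose log2 difference of 2.35 was close to that of Cd14. The 13 mural markers summed to 4646 and 2978, mostly Acta2. All 7 of them at a mean RPKM of 1 or more were lower, Mcam going from 4.90 to 0.264. Past 2-fold downward came 4 of these 7 mural genes and 4 of the 9 fibroblast genes. Only Cd34 among them passed 2-fold upward. Of all 10068 genes at this level, 4522 were lower by any amount, 7.81% passed 2-fold downward and 7.98% upward. The pericyte gene Kcnj8, below that level, was listed at 0 in WT and at 0.791 (about 42 reads) in Kai1 KO PVCs. Of 7 adipocyte markers, Fabp4 was at 10.6 and 4.53 and Adipoq was at 0 in both. Whether any of these cell types took part in the Cd14 level was not tested.

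The 5 genes whose pair of levels was nearest to that of Cd14, by distance on the log2(RPKM + 0.1) scale over the 2 libraries, were Foxa2 (1.84 and 10.9), Pfkfb2 (1.74 and 10.3), Dlk2 (2.23 and 8.33), Arhgap36 (2.57 and 9.57) and the histone gene Hist1h3g (1.83 and 13.4), which belongs to a family of near-identical copies. With 2 libraries, such nearness says no more than that both values were alike. Around the other members, the nearest measured genes with a mean RPKM of 1 or more, 12 in all with those of Cd14, had log2 differences from -2.47 to 0.64, and 1 was more than 2-fold lower. That gene was Sorbs2 beside Tlr3, at 4.42 and 0.717.

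**Figure D5:**
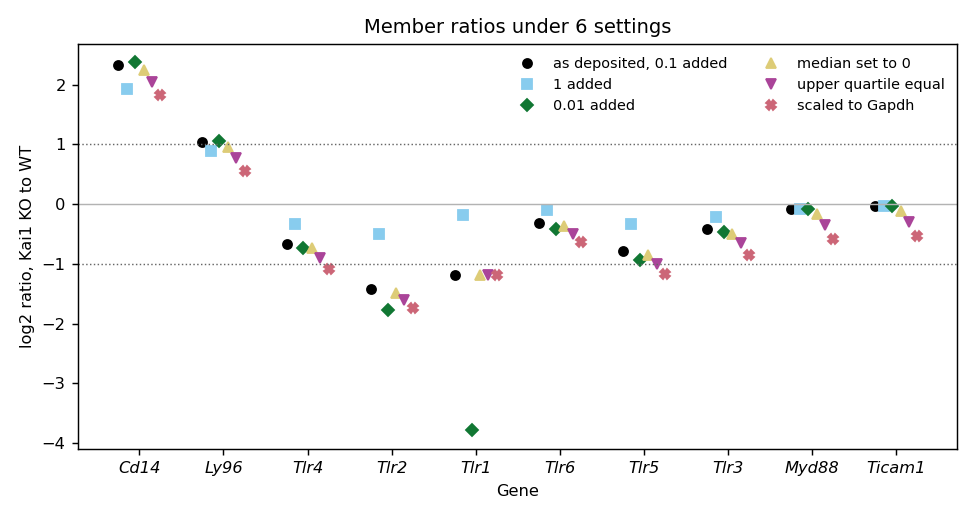
Log2 ratio of Kai1 KO to WT of each of the 10 genes under 6 settings, as deposited with 0.1 RPKM added, with 1 or 0.01 added, and under 3 other scalings of the libraries. Cd14 stayed at 1.83 or above in every setting drawn, Ly96 crossed the 2-fold line at 1, and Tlr1 moved most with the added value because it is listed at 0 in Kai1 KO PVCs.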

How the data were processed

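Reads had been mapped by the authors with TopHat 2.0.9 and Bowtie on mm9, and the deposited values are RPKM, 1 per RefSeq gene and library. Per the labels, Cufflinks was also used, and its version, the read length, the library type and the counting strand are not given in the sources used here. The 2 tables held 20462 rows each. After 38 rows with no symbol were dropped and repeated symbols replaced by their mean, 20211 were left. The log2 ratio was log2((Kai1 KO RPKM + 0.1)/(WT RPKM + 0.1)), which understates changes of low genes, and counts past 2-fold used the 10068 genes whose mean RPKM was 1 or more. No p-value was computed, since each genotype has 1 library.

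Read numbers were estimated from genes with 1 annotated transcript of over 800 bases in GENCODE M1 (mm9). Low values times transcript length less 200 bases were fitted to whole reads, and 78.8% (WT) and 76.3% (Kai1 KO) lay within 0.15 of a whole read. Intervals are exact Poisson for a level and Clopper-Pearson for a ratio, and all estimates are approximate. The step fit was tried on simulated reads made with the same 200-base correction, and the fold calls on simulated counting noise. Neither simulation tests the 200-base value or differences between libraries.

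The members and lists were chosen with earlier results of these data known. The planned rule was to name at most the 2 largest falls and 2 largest rises past 2-fold of each list, and other genes for their role. For the pathway lists the text goes past this rule and names every gene past 2-fold at a mean RPKM of 1 or more, with its values. Alternatives were pseudocounts, scalings, filters and the row used for a repeated symbol. Python 3.11.15, numpy 2.4.6, pandas 2.3.3, scipy 1.17.1 and matplotlib 3.10.9 were used.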

Additional observations from a re-analysis of the deposited data

How the results depend on the processing

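All 60 recomputed log2 ratios of the 10 genes kept their sign, and 52 stayed within the counting interval of the ratio. For most of the 60 the sign could not have turned, so these counts say little. A changed added value cannot turn a sign, and using the highest row of a repeated symbol left all 10 ratios unchanged. The other scalings all lowered Kai1 KO against WT, so only Cd14 and Ly96 could have turned under them. Both stayed higher. Tlr1 kept the same ratio under every scaling. With 1 RPKM added the ratio was 1.92 for Cd14, -0.51 for Tlr2 and -0.17 for Tlr1. Scaled to Gapdh it was 1.83 for Cd14, -0.58 for Myd88 and -0.52 for Ticam1, and with equal upper quartiles -0.36 for Myd88 and -0.30 for Ticam1. Tlr4 (-1.08) and Tlr5 (-1.17) passed 2-fold when scaled to Gapdh, and Tlr5 (-1.003) just passed it with equal upper quartiles. Gapdh itself was higher in Kai1 KO PVCs (4238 and 5997), which sets the shift under its scaling. The RPKM summed over all symbols was also higher in Kai1 KO PVCs, at 884463 in WT and 1238193 in Kai1 KO. The difference in level is therefore not limited to Gapdh, and scaling to this sum was not run.

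Of the 4 genes at a mean RPKM of at least 1, 1 and not 2 was more than 2-fold higher with 1 RPKM added and under each of the 3 other scalings. Without the filter 2 of the 10 genes were more than 2-fold lower. The median of the members was 0.51 in the 4 genes, 0.24 with equal upper quartiles, 0.0138 scaled to Gapdh and -0.37 over all 10.

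Over the pathway lists together, 32 genes were more than 2-fold lower without the filter and 9 at a mean RPKM of at least 5, and 2 were higher scaled to Gapdh. The median was -0.40 with equal upper quartiles and -0.62 scaled to Gapdh. Of the single lists, the median of the adaptors and kinases turned to 0.15 at a mean RPKM of at least 5 and that of the interleukin-1 family to -0.02 without the filter, where other genes enter or leave the list. That of the transcription factors, 0.01 as deposited, was -0.08 with the median of all genes set to 0, -0.26 with equal upper quartiles and -0.49 scaled to Gapdh. Of 128 recomputed counts of single lists, 25 moved by over 1.5 times or went to or from 0. Among them were the genes more than 2-fold lower in ligand delivery (1, against 2 with the median set to 0 or equal upper quartiles and 3 scaled to Gapdh) and in the negative regulators (2, against 4 with equal upper quartiles or scaled to Gapdh). Over all genes, 1251 were lower and 447 higher with equal upper quartiles, 1856 and 278 scaled to Gapdh, 1878 and 1205 without the filter, and 350 and 511 at a mean RPKM of at least 5.

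No paired analysis was possible because only 1 library stands for WT and 1 for Kai1 KO, and no library could be left out. The estimated reads limit Tlr1, Tlr2 and Tlr6, with 0, 15 and 14 reads in Kai1 KO PVCs.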
